A study of Homo sapiens with 11 samples.

Results

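The genes described here encode 10 subunits of integrins, which are adhesion and migration receptors. All were measured in MDA-MB-231 cells, a human triple-negative breast cancer cell line. They are the α subunits ITGA2, ITGA3, ITGA5, ITGA6 and ITGAV and the β subunits ITGB1, ITGB3, ITGB4, ITGB5 and ITGB8, and they were found in the count tables by their Ensembl identifiers. All 10 were among the 23167 genes listed in each table, and all 10 passed the filter on low counts, as did 10963 genes in all. RNA-seq compared WT cells, which received the transfection reagent with no siRNA (2 libraries), with mH2A1.1 KD cells, which received 11 nM of an siRNA against the mH2A1.1 isoform of the histone variant macroH2A1 for 3 days (2 libraries). No WT library received a non-targeting siRNA, so the presence of an siRNA and the loss of mH2A1.1 cannot be told apart. ChIP-seq of untreated cells mapped mH2A1.1 with an isoform-specific antibody and total mH2A1 with an antibody against both isoforms, in 1 library each. The question was which integrin transcripts differed after the knockdown, and which integrin genes carried mH2A1.1.

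Integrins are receptors made of an α and a β subunit that span the plasma membrane and tie the extracellular matrix to the cytoskeleton. The β1 subunit ITGB1 pairs with ITGA2 to bind collagen, with ITGA3 or ITGA6 to bind laminin and with ITGA5 to bind fibronectin, whereas ITGAV pairs with several β subunits and binds ligands that hold an Arg-Gly-Asp motif. ITGA6 also pairs with ITGB4, the β subunit of hemidesmosomes, which is linked to keratin filaments through plectin. MacroH2A1 is a large histone variant that replaces H2A in broad chromatin domains, and its isoforms mH2A1.1 and mH2A1.2 come from the same gene by alternative splicing.

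The WT libraries held 9794674 and 7856892 counts and the mH2A1.1 KD libraries 5584962 and 2309549. The table of KD replicate 2 listed 30 counts for chromosome 21 and 0 for chromosomes 22 and X, where the other libraries held between 44311 and 379581 per chromosome, so genes of these chromosomes were left out. None of the 10 integrin genes lies there. MACROH2A1, the targeted gene, was counted 3658 and 2993 times in WT and 1449 and 635 times in KD, which is 389 ± 6.20 CPM (counts scaled to a common library size) in WT and 287 ± 18.6 CPM in KD (mean ± SD, n = 2). Both KD libraries lay below both WT libraries, with a log2 fold change of -0.44 (SE 0.173, edgeR adjusted p = 0.205). Its corrected log2 fold change, from the fit with offsets for GC content and length was -0.40 (edgeR adjusted p = 0.0895). Counts per gene merge both splice forms, so how far the targeted isoform was lost is not measured by them. The mesenchymal markers VIM, CD44, EGFR, AXL and CAV1 were all above 500 CPM in each library while SPARC was at most 2.84 CPM, and the luminal receptors ESR1 and PGR had no counts. Summed markers of blood cells (4 genes), endothelium (3 genes) and neurons (2 genes) reached at most 3.26, 5.86 and 0.526 CPM in any library. The luminal list of 10 genes summed to 1220.4 and 1346 CPM in WT and to 1992 and 3005 CPM in KD, mostly through the keratins KRT8, KRT18 and KRT19, and its part in the integrin values was not tested.

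ITGA5, ITGB4 and ITGA3 were higher in both mH2A1.1 KD libraries than in both WT libraries, by 1.73-, 1.75- and 1.63-fold. ITGAV, ITGA2 and ITGB1 were lower in both KD libraries, at 0.688, 0.758 and 0.835 of the WT level. ITGA6, ITGB3, ITGB5 and ITGB8 overlapped between the conditions. A gene was called when its edgeR adjusted p was under 0.1 and its fold change over 1.5. By that rule 0 of the 10 integrin genes were called, as were 0 of the 10963 genes tested (0%), with a smallest edgeR adjusted p of 0.176 over all genes. At an unadjusted edgeR p under 0.05, 3 of the 10 were higher in KD against 11.8% of all genes, and 1 of the 10 was lower against 11.4%. Across all genes tested, both KD libraries lay above both WT libraries in 32.5% and below them in 32.4%, so 3 of 10 on each side is close to that background. DESeq2 gave an adjusted p for 9 of the 10 and called 3 of them higher (ITGA3, ITGA5 and ITGB4) and 0 lower, where 5.59% of 7642 genes were called higher and 5.86% lower. The median log2 fold change was 0.01 over the 10 integrin genes and 0.01 over all genes tested.

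**Figure D1:**
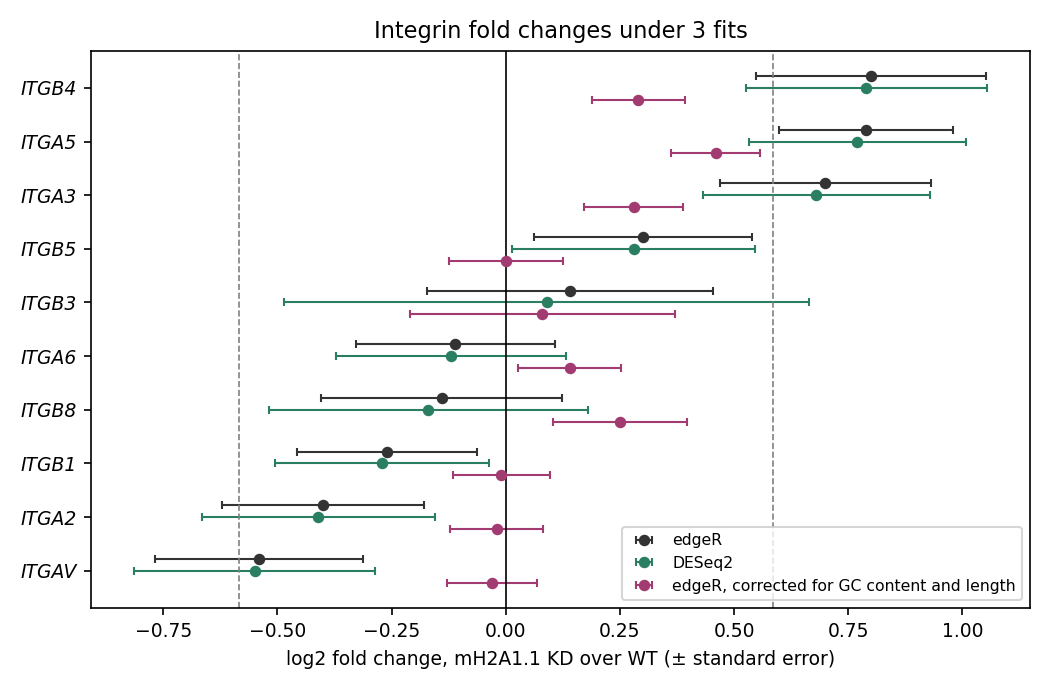
Log2 fold change of each integrin gene in mH2A1.1 KD over WT cells (2 libraries each), with its standard error, from edgeR, from DESeq2 and from edgeR after a correction for GC content and length. Dashed lines mark a fold change of 1.5 in either direction. ITGA5, ITGB4 and ITGA3 lie beyond the line without the correction and inside it with the correction.

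Among the laminin receptors, the values of ITGA3 and ITGB4 were higher in both KD libraries, although edgeR called neither, and ITGA6 was not separated. The log2 fold changes of ITGA3 and ITGB4 were 0.28 and 0.29 after a correction for GC content and length. ITGA3 (ENSG00000005884), a laminin receptor subunit, was measured at 1236 and 1327 CPM in WT replicates 1 and 2 and at 1685 and 2490.0 CPM in KD replicates 1 and 2. Its log2 fold change was 0.70 (SE 0.231, adjusted p = 0.194 with edgeR, adjusted p = 0.0731 with DESeq2). The WT libraries were close together, and KD replicate 2 stood further from them than KD replicate 1. ITGB4 (ENSG00000132470) was measured at 324 and 347 CPM in WT and at 451 and 723 CPM in KD. Its log2 fold change was 0.80 (SE 0.251, adjusted p = 0.194 with edgeR, adjusted p = 0.0537 with DESeq2). GALK1, which overlaps ITGB4 on the opposite strand, held 57 to 131 counts per library against 1530 to 3080 for ITGB4. ITGA6, the partner of ITGB4, was measured at 779 and 749.7 CPM in WT and at 832 and 581 CPM in KD. The KD libraries thus lay on both sides of the WT libraries, and the log2 fold change was -0.11 (SE 0.219, edgeR adjusted p = 0.758). The ratio of ITGA6 to ITGB4, per exonic kilobase, was 2.43 and 2.19 in WT and 1.87 and 0.814 in KD, so ITGB4 exceeded ITGA6 only in KD replicate 2.

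The values of the fibronectin receptor subunit ITGA5 were higher in both KD libraries and those of the Arg-Gly-Asp receptor subunit ITGAV lower, although edgeR called neither. Their transcripts differ in GC content (55.5% and 36.7%), and after a correction for GC content and length their log2 fold changes were 0.46 and -0.03. ITGA5 (ENSG00000161638) was measured at 165 and 171 CPM in WT and at 259 and 322 CPM in KD, that is 168 ± 4.35 against 291 ± 44.6 CPM (mean ± SD, n = 2). Its log2 fold change of 0.79 had the smallest SE of the 10 genes (SE 0.191, adjusted p = 0.194 with edgeR, adjusted p = 0.0336 with DESeq2). ITGAV (ENSG00000138448) was measured at 258 and 238 CPM in WT and at 202 and 138 CPM in KD. The groups did not overlap, and the log2 fold change was -0.54 (SE 0.227, adjusted p = 0.215 with edgeR, adjusted p = 0.169 with DESeq2). The ratio of ITGA5 to ITGAV, per exonic kilobase, was 1.67 and 1.88 in WT and 3.36 and 6.14 in KD. In CPM, ITGA5 lay below ITGAV in both WT libraries and above it in both KD libraries. Of the β subunits that pair with ITGAV, ITGB3, ITGB5 and ITGB8 overlapped between the conditions, and ITGB1 is described with ITGA2. ITGB5, a vitronectin receptor subunit, was measured at 161 and 173 CPM in WT and at 163 and 249.99 CPM in KD (log2 fold change 0.30, edgeR adjusted p = 0.438). ITGB8, which takes part in the activation of latent TGF-β, was measured at 28.4 and 27.9 CPM in WT and at 30.8 and 18.4 CPM in KD (log2 fold change -0.14, edgeR adjusted p = 0.746). For both, the first KD library was near WT and the second stood apart. ITGB3, known from platelets and osteoclasts, had only 52, 38, 35 and 9 counts, and its log2 fold change of 0.14 (SE 0.313, edgeR adjusted p = 0.788) was not resolved at this depth. A protein-coding readthrough gene lies over ITGB3 on the same strand and was not in the count tables, so its reads cannot be told apart from those of ITGB3.

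The collagen receptor subunit ITGA2 and the shared β subunit ITGB1 had lower values in both KD libraries, differences that neither edgeR nor DESeq2 called. They came to -0.02 and -0.01 on the log2 scale after a correction for GC content and length. ITGA2 (ENSG00000164171) was measured at 474 and 435 CPM in WT and at 405 and 283 CPM in KD, with a log2 fold change of -0.40 (SE 0.221, edgeR adjusted p = 0.29). ITGB1 (ENSG00000150093) was measured at 1736 and 1722 CPM in WT and at 1623 and 1261 CPM in KD, with a log2 fold change of -0.26 (SE 0.196, edgeR adjusted p = 0.414). KD replicate 1 lay just below the WT libraries in both genes and KD replicate 2 well below them. ITGA3 exceeded ITGB1 by 1.06 and 1.14 times in WT and by 1.54 and 2.93 times in KD, per exonic kilobase. In CPM, ITGA3 lay below ITGB1 in both WT libraries and above it in both KD libraries.

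The integrin differences ran with the GC content of the transcripts. From the lowest to the highest of 5 equal bins of all genes tested by exonic GC content, the median log2 ratio of KD replicate 2 to the WT mean went from -0.79 to 0.73, that of KD replicate 1 from -0.25 to 0.18, and that of WT replicate 2 to WT replicate 1 from -0.11 to 0.09. ITGAV (36.7% GC), ITGB8 (39.1%) and ITGA2 (40.2%) were in the lowest bin, ITGB1 (41.8%) and ITGA6 (42.5%) in the next, and ITGB3 (49.2%) in the middle one. ITGB5 (54%) and ITGA5 (55.5%) were in the next higher bin and ITGA3 (57.4%) and ITGB4 (64%) in the highest. Thus the 3 genes that were higher in KD were the 3 of highest GC content. The Spearman correlation between exonic GC content and log2 fold change was 0.95 over the 10 integrin genes and 0.67 over 10943 genes with an annotation, values given as a description across genes of the same libraries. A second edgeR fit corrected each library for GC content and length. It left a median log2 fold change between -0.01 and 0.03 in the 5 bins and called 244 genes higher (2.23%) and 347 lower (3.17%). In that fit 0 of the 10 integrin genes were called. ITGAV, ITGA2 and ITGB1 came to log2 fold changes of -0.03, -0.02 and -0.01 (adjusted p = 0.862, 0.932 and 0.962 with edgeR). ITGB4 and ITGA3 came to 0.29 and 0.28 (adjusted p = 0.132 and 0.153 with edgeR). ITGA5 kept a log2 fold change of 0.46 (SE 0.098), or 1.38-fold, with an adjusted p of 0.0499 in edgeR and 0.0381 in DESeq2 with the same correction. It was the 1 integrin gene of 10 with an adjusted p under 0.1 at any fold in that fit, a level that 5.65% of all genes reached in the higher direction. In KD replicate 1, the library with the smaller gradient, ITGA5 had a log2 ratio to the WT mean of 0.63, ITGB4 of 0.43 and ITGA3 of 0.39.

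**Figure D2:**
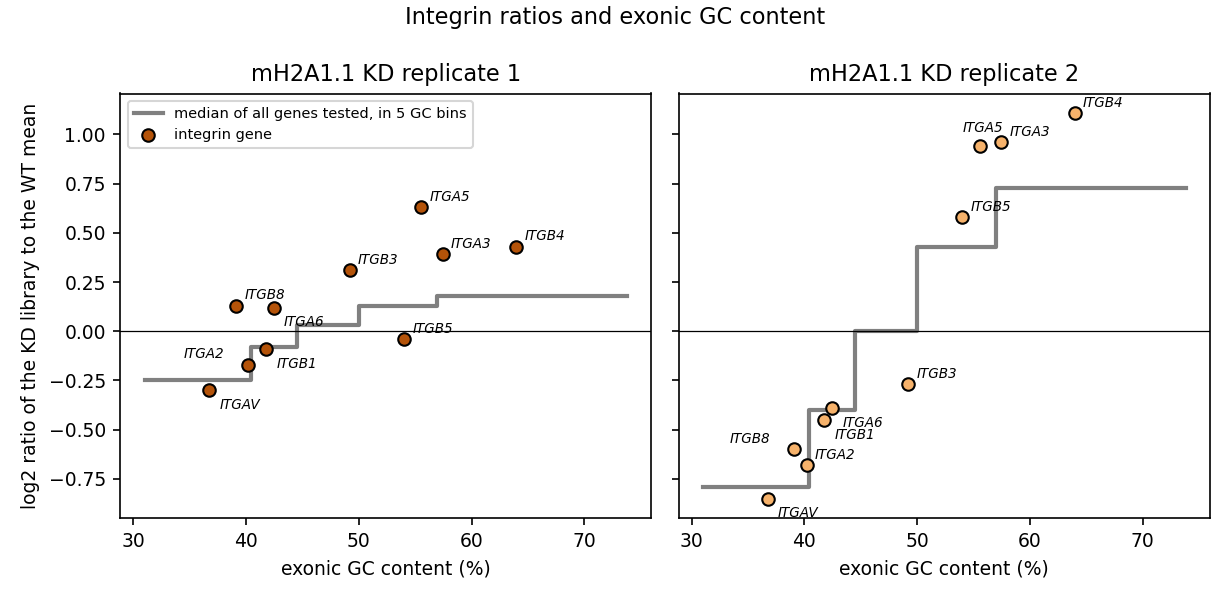
Log2 ratio of each mH2A1.1 KD library to the mean of the 2 WT libraries (vertical axis) against exonic GC content in percent (horizontal axis). Points are the 10 integrin genes and the stepped line is the median of all genes tested in each of 5 bins by GC content. The line climbs from -0.79 to 0.73 in KD replicate 2 and from -0.25 to 0.18 in KD replicate 1. In both libraries 6 of the 10 genes lie above it (ITGA2, ITGA3, ITGA5, ITGA6, ITGB4 and ITGB8). The same share over all genes was not counted, and ITGA2 (40.2% GC) is near the upper edge of its bin (40.4%).

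Per kilobase of exon, WT cells held most transcripts of ITGA3 (131 CPM per exonic kb), ITGB1 (119) and ITGA6 (114). Exon length was that of the merged exons of all annotated transcripts, 9802 bp for ITGA3 and 14561 bp for ITGB1. The length of the transcripts expressed was not measured, so the order depends on the annotation. In CPM, ITGB1 (1729 in WT) lay above ITGA3 (1282). ITGA2 (57.6), ITGB4 (49.6), ITGB5 (25.6), ITGA5 (22.7) and ITGAV (12.8) came next, and ITGB8 (1.86) and ITGB3 (0.766) were last. The ranges of the 2 WT libraries did not overlap between any neighbours in this order, although ITGB1 and ITGA6 differed by only 1.04 times. In KD cells the order was ITGA3 (213), ITGA6 (106), ITGB1 (99.04), ITGB4 (86.8), ITGA2 (43.6), ITGA5 (39.4), ITGB5 (31.7), ITGAV (8.78), ITGB8 (1.62) and ITGB3 (0.796), and the ranges of the 2 KD libraries overlapped in 4 of the 9 pairs of neighbours (ITGA6 with ITGB1, ITGB1 with ITGB4, ITGA2 with ITGA5, and ITGA5 with ITGB5). ITGB4 thus moved ahead of ITGA2, and ITGA5 ahead of ITGB5 in their means. Of the 5 β subunits together, ITGB1 made up 61.3% and 59.5% in WT and 54.1% and 37.1% in KD. ITGB4 made up 24.6% and 25.8% in WT and 32.4% and 45.7% in KD. Of the 5 α subunits, ITGA3 made up 37.3% and 40.03% in WT and 43.7% and 59.4% in KD, while ITGA6 made up 34.5% and 33.2% in WT and 31.7% and 20.3% in KD. In each of these 4 genes KD replicate 1 lay between the WT libraries and KD replicate 2. These shares carry the GC gradient of the libraries described above and depend on the annotated exon lengths.

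**Figure D3:**
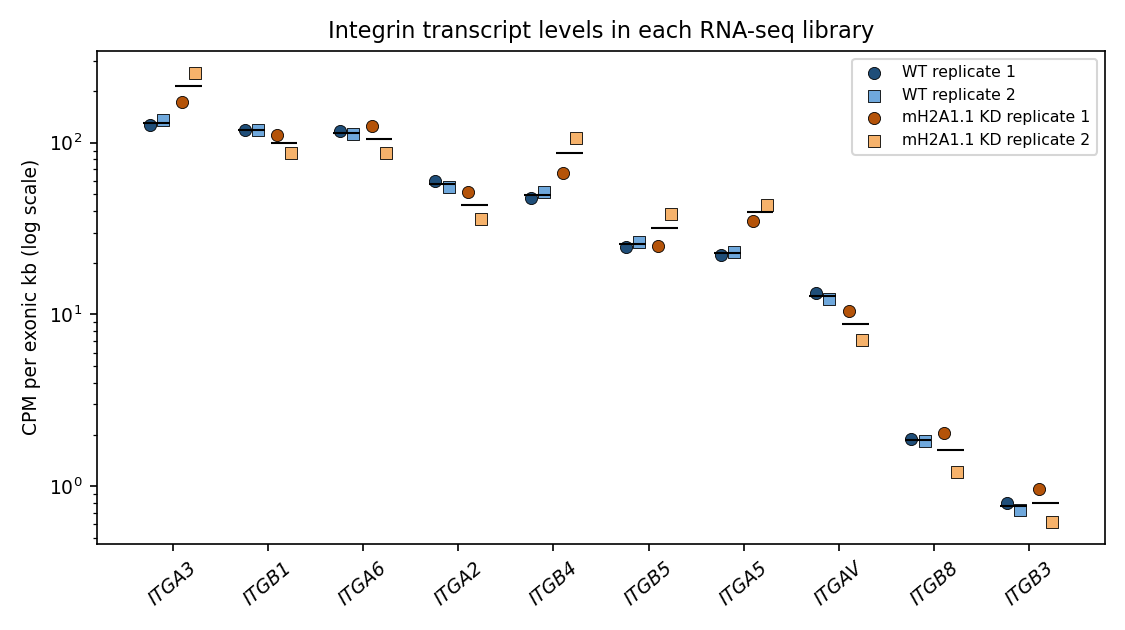
Level of each integrin gene in each RNA-seq library, in CPM per exonic kilobase on a log axis, ordered by the WT mean. Points are libraries and short lines the mean of 2 libraries. Levels run from 131 for ITGA3 to 0.766 for ITGB3 in WT, and the KD libraries are spread more widely than the WT libraries in all 10 genes.

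**Figure D4:**
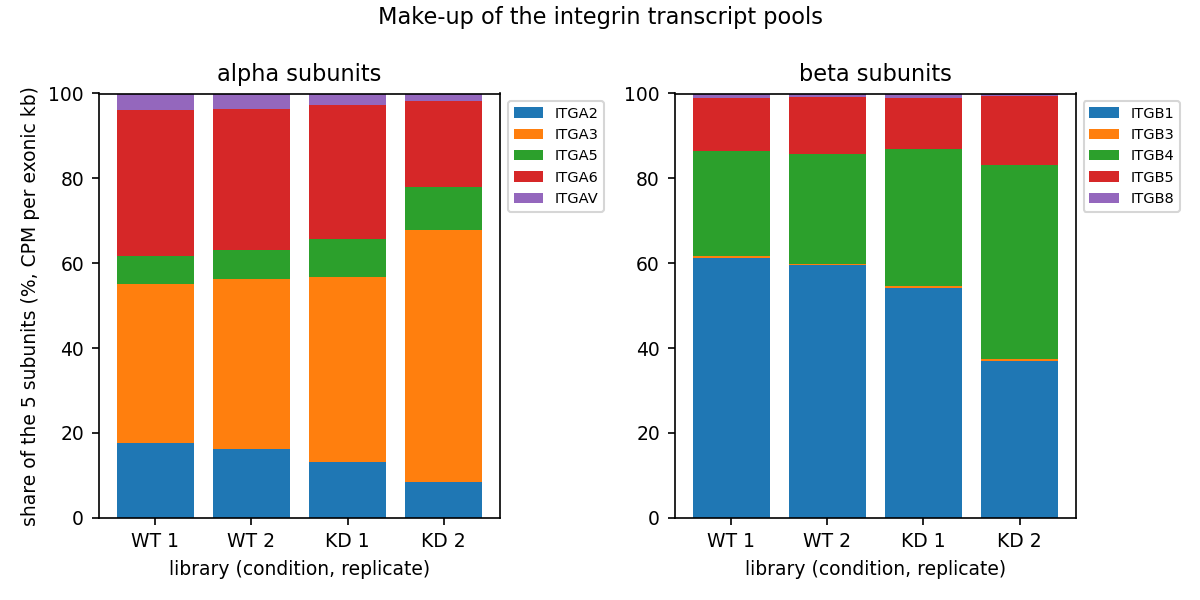
Share of each α subunit (left) and each β subunit (right) in the summed level of its 5 genes, in percent of CPM per exonic kilobase, for each library. ITGA3 and ITGB4 take the largest shares in KD replicate 2, at 59.4% and 45.7%.

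The integrin genes differed widely in the macroH2A1 they carried in untreated cells. Peaks were called in bins of 3000 bp from 1 library per antibody, so no replicate error can be given. An mH2A1.1 peak lay within 500 bp of the annotated gene start in 6 of the 10 (ITGA3, ITGA5, ITGA6, ITGAV, ITGB3 and ITGB4), against 46.9% of the genes tested. With the start of the canonical transcript ITGB5 joined them, giving 7 of 10 against 47.4%. In 5 of the 10 (the same genes without ITGAV) the peak was common, against 26.2% of the genes tested. Common means that it overlapped a peak of the total mH2A1 antibody. Over all genes tested, 5137 had an mH2A1.1 peak at the start and 2871 a common one. A total mH2A1 peak itself lay at the gene start in 3 (ITGA5, ITGA6 and ITGB3), against 18.4%. The widest of these mH2A1.1 peaks was at ITGA3, on chromosome 17 of GRCh38 (chr17:49974001-50079000, 105000 bp). It covered the gene start and the first 66.7% of the gene (chr17:50055968-50090481, plus strand), and a further common peak of 141000 bp began beyond the gene end. ITGB4, on the same chromosome (chr17:75721328-75757818, plus strand), lay at the edge of a peak of 42000 bp (chr17:75681001-75723000) that reached only 1541 bp past its canonical start. ITGA5 (chr12:54395261-54419266, minus strand) had its start inside a peak of 33000 bp (chr12:54408001-54441000) that covered 46.9% of the gene, with a total mH2A1 peak of 18000 bp over the same start. No other gene that was tested had its start inside the peaks over the starts of ITGA3, ITGA5 and ITGB4. These 3 genes had the widest mH2A1.1 peaks at their starts among the 10.

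Smaller peaks marked the other starts. ITGAV (chr2:186590010-186680901, plus strand) had a peak of 12000 bp at its start with no total mH2A1 peak anywhere in the gene. ITGA6 had a common peak of 6000 bp at its start and ITGB5 a peak of 3000 bp at its canonical start. The start of ITGB3, the least abundant of the 10 transcripts, lay in a common peak of 6000 bp, and peaks covered 58.7% of this gene for mH2A1.1 and 78.7% for total mH2A1, where the median gene had 8.29% covered by mH2A1.1. ITGB1 (chr10:32887273-33005792, minus strand) held no mH2A1.1 peak in its body, nor did ITGB8, whereas 72.3% of the genes tested overlapped one. The nearest mH2A1.1 peak, a common one, lay 6209 bp upstream of the annotated gene start of ITGB1 and 53771 bp upstream of its canonical start. A total mH2A1 peak of 6000 bp lay inside the gene, upstream of the canonical start. ITGA2 held peaks of 6000 and 3000 bp inside the gene, the nearer one 26649 bp past its canonical start. ITGA3 and ITGB1, neighbours at the top of the order of WT levels, thus had the highest and the lowest mH2A1.1 coverage of the 10, the lowest shared with ITGB8.

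**Figure D5:**
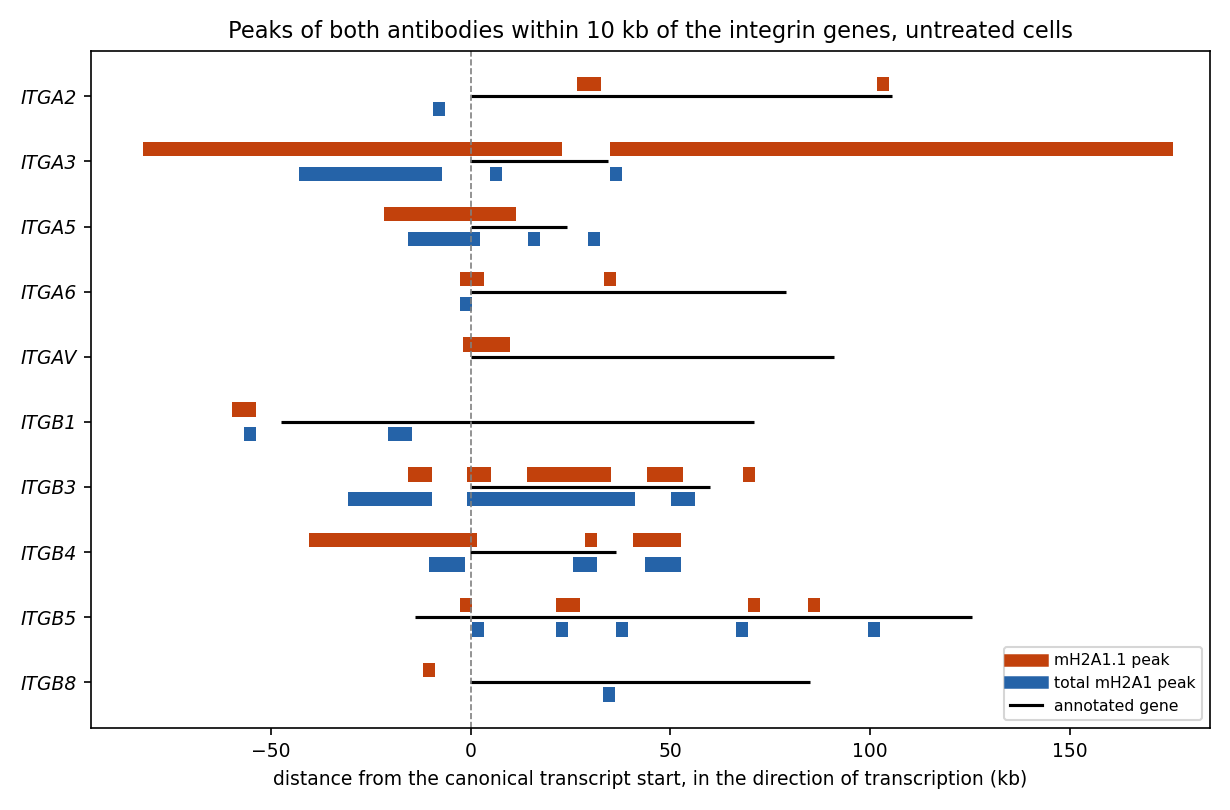
Peaks of the mH2A1.1 antibody (upper bars) and the total mH2A1 antibody (lower bars) in untreated cells that lie within 10000 bp of each integrin gene, against distance from the canonical transcript start in kb, with transcription running to the right. Thin lines are the annotated genes. ITGA3, ITGA5 and ITGB4 have the widest mH2A1.1 peaks at their starts, and ITGB1 and ITGB8 have none inside the gene.

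The promoter sequences show that integrin genes with and without a peak at the start share GC-rich promoters. RefSeq (GRCh38.p14) gave the 250 bases upstream of the canonical start for 7 of the 10 genes (ITGA2, ITGA5, ITGA6, ITGAV, ITGB1, ITGB5 and ITGB8, not ITGA3, ITGB3 and ITGB4), and all 7 matched the genome. Shown are ITGA5, whose start lay in a wide mH2A1.1 peak, ITGB5, whose canonical start lay in a single bin, and ITGA2, with no peak at its start. Each runs 5′ to 3′ on the strand of the gene, and capitals mark GC boxes (GGGCGG or, on the other strand, CCGCCC). The positions are chr12:54419267-54419516 (minus strand) for ITGA5, chr3:124887366-124887615 (minus strand) for ITGB5 and chr5:52989102-52989351 (plus strand) for ITGA2.
ITGA5: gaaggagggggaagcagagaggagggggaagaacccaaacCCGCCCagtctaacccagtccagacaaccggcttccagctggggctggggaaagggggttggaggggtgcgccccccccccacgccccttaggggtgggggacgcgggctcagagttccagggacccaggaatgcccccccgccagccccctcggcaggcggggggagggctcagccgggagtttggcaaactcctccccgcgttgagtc
ITGB5: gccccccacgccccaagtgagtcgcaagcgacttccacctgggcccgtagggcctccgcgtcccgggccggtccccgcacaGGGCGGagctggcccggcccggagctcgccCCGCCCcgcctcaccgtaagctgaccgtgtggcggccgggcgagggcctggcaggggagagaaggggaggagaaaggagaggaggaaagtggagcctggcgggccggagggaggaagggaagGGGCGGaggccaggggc
ITGA2: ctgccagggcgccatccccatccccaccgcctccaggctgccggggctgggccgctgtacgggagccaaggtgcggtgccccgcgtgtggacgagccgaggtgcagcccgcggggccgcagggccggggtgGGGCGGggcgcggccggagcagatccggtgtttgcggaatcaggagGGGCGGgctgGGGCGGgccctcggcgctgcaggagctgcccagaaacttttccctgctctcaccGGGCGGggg

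GC content was 70.0% in the ITGA5 promoter with 1 GC box, 75.2% in that of ITGB5 with 3 and 76.4% in that of ITGA2 with 4. Over the 7 promoters it ran from 70.0% to 78.4% (ITGB1), where the median of 34943 promoters of the same length was 58%. A GC box was found in 6 of the 7 (all but ITGAV), against 42.5% of all promoters. The CCAAT box (CCAAT, 32% of all promoters) was found only in ITGB8, and neither the AP-1 motif TGANTCA (6.59%) nor the TATA box TATAAA (10.8%) was found in any of the 7, searched on both strands. The promoters of low-GC transcripts such as ITGA2 and ITGAV were thus as GC-rich as that of ITGA5, in contrast to their exons.

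Set beside the peaks, 3 of the 5 integrin genes with a common mH2A1.1 peak at the canonical start (ITGA3, ITGA5 and ITGB4) were higher in both KD libraries, while ITGA6 and ITGB3 overlapped between the conditions. Over all genes tested, 32.5% were higher in both KD libraries and 32.4% lower, shares that were not counted by peak class. A link between peaks and direction was not tested in so few genes. Of the 2 genes with a peak that was not common, ITGAV was lower in both KD libraries and ITGB5 overlapped. Of the 3 with no peak at the start, ITGA2 and ITGB1 were lower in both KD libraries and ITGB8 overlapped. The same order held over all genes, where the median log2 fold change was 0.29 for 2816 genes with a common peak, -0.03 for 2374 with a peak that was not common and -0.12 for 5753 with none. Median exonic GC content ran the same way, at 56.2%, 46.1% and 43.9%, and after the correction for GC content and length the median log2 fold change was 0.01 in each of the 3 classes. The correction removes whatever runs with GC content. A difference by peak class and a difference by GC content therefore cannot be told apart here.

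Of 16 other integrin subunits, 3 passed the filter on low counts, 12 did not, and ITGB2 is on chromosome 21. ITGA1, a collagen receptor subunit, was measured at 27.6 and 23.5 CPM in WT and at 18.7 and 10.4 CPM in KD (log2 fold change -0.73, edgeR adjusted p = 0.205, and -0.28 in the corrected fit). ITGAE, a partner of ITGB7, was measured at 10.4 and 10.8 CPM in WT and at 11.7 and 13.7 CPM in KD (log2 fold change 0.24, edgeR adjusted p = 0.534). ITGA10 overlapped between the conditions. ITGA4, ITGA8 and ITGA11 had no counts in any library, which allows up to 3 counts in each and covers counting error only.

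Among the genes that work with integrins, none of 25 matrix ligands, 26 activators and adaptors, 22 signalling genes and 14 membrane partners and hemidesmosome genes was called by edgeR. Both KD libraries lay above both WT libraries in 18 of the matrix ligands, 13 of the activators and adaptors, 7 of the signalling genes and 9 of the membrane partners, and below in 1, 4, 8 and 1, where 32.5% and 32.4% of all genes did so. The median log2 fold changes were 0.35, 0.22, 0.06 and 0.38, and 0.24, 0.09, -0.04 and 0.13 after the correction for GC content and length. DESeq2 called 4 matrix ligands, 2 activators, 1 signalling gene and 3 membrane partners higher, and 2 signalling genes lower, where it called 5.59% of all genes higher and 5.86% lower. PLEC, which encodes plectin and ties ITGB4 to keratin, was measured at 3120 and 3389 CPM in WT and at 4764 and 9059 CPM in KD. Its log2 fold change was 1.09 (SE 0.308, adjusted p = 0.194 with edgeR, adjusted p = 0.0129 with DESeq2), and with 67.2% GC it came to 0.43 in the corrected fit (edgeR adjusted p = 0.0847). TLN1, which encodes talin that binds β subunit tails and activates integrins, had a log2 fold change of 0.70 (adjusted p = 0.194 with edgeR, adjusted p = 0.0707 with DESeq2) and, with 56.7% GC, one of 0.30 in the corrected fit (edgeR adjusted p = 0.137). The matricellular ligands THBS1 and CCN1 had log2 fold changes of 0.33 and 0.39 (edgeR adjusted p = 0.434 and 0.314). CAV1, RHOA and the hyaluronan receptor CD44 had log2 fold changes of 0.10, 0.05 and 0.05 (edgeR adjusted p = 0.745, 0.858 and 0.863), and CD44 one of 0.32 in the corrected fit (edgeR adjusted p = 0.207).

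In the corrected fit 6 of these genes were called, 5 higher and 1 lower, where 2.23% of all genes were called higher and 3.17% lower, and they are named here after their values were seen. The matrix genes TNC (tenascin C), COL1A1 and COL1A2 (type I collagen) rose, with corrected log2 fold changes of 0.64, 0.97 and 1.01 (SE 0.115, 0.192 and 0.215, edgeR adjusted p = 0.0343, 0.0428 and 0.051). COL1A1 held only 66 to 97 counts per library and COL1A2 121 to 217. DESeq2 gave COL1A1 no adjusted p, with or without the correction. FERMT2, which encodes kindlin-2 and activates integrins together with talin, rose by 0.71 (edgeR adjusted p = 0.0203), although its libraries overlapped without the correction. PTK2B, a focal adhesion kinase relative, rose by 0.89 (SE 0.159, edgeR adjusted p = 0.0335), with 73 to 136 counts per library. ROCK1, a kinase that drives actomyosin contraction, fell by 0.78 in the corrected fit (edgeR adjusted p = 0.0146). Without the correction it was measured at 231 and 219 CPM in WT and at 113 and 84.1 CPM in KD. Its uncorrected log2 fold change was -1.18 (edgeR adjusted p = 0.176). Across the 4 libraries the genes outside the 10 integrins whose centred log2 CPM lay nearest to ITGB1 were CD47, DST and CDC42, at Euclidean distances of 0.162, 0.219 and 0.221 among 99 genes compared, and the nearest integrins were ITGA6 (0.177) and ITGA2 (0.201).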

How the data were processed

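RNA-seq was deposited as a count per gene and library. The authors aligned reads to GRCh38 with STAR 2.5.1, filtered on mapping quality, removed duplicates and counted with htseq-count at default settings after a stranded kit. Removing duplicates without molecular identifiers can also remove distinct molecules of abundant genes, which was not measured here. The deposited peak positions come from normR calls of single libraries against input, and their score column is 0 throughout. The input and the promoter capture Hi-C samples were not analysed here.

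Identifiers were matched to GENCODE (23061 of 23167). Counts were tested with edgeR 4.0.16 (quasi-likelihood, TMM, filterByExpr, Benjamini-Hochberg over all genes tested) after leaving out chromosomes 21, 22 and X, on simulated data first. DESeq2 1.42.0 was an alternative, as were offsets for GC content and length. CPM used TMM-scaled library sizes, and log2 ratios to the WT mean a pseudocount of 0.5 CPM. Nothing states that libraries came from separate cultures, so p-values measure the spread between these libraries. Members, lists and tests were chosen with earlier results of these data known. From each list the 2 genes of highest WT level per exonic kilobase were named, except 1 that is not reported here.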

Additional observations from a re-analysis of the deposited data

How the results depend on the processing

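The number of integrin genes called was 3 (ITGA3, ITGA5 and ITGB4, against 0 in the test reported) with no low-count filter, with DESeq2, with DESeq2 on all chromosomes and with a replicate block. It remained 0 with RLE size factors, with all chromosomes, with the correction for GC content and length (also with the block and in DESeq2, the latter chosen after seeing the data), with libraries thinned to the smallest, at any fold and at an adjusted p under 0.05. Where 3 integrin genes were called, all 3 were higher in KD. Calls in that direction over all genes were 1024 of 15068 with no filter and 1071 of 10963 with the block. They were 427 of the 7642 with an adjusted p in DESeq2, and 411 of 23167 listed with DESeq2 on all chromosomes. The 3 of 10 are to be read against these shares, and an excess over them was not tested. Fits that left out 1 library had a lone library in a group, assumed to vary like the other group. Since the lone library has no spread of its own, their calls are not counted here. Without KD replicate 1 the log2 fold changes of ITGA5, ITGA3, ITGAV and ITGA2 were 0.93, 0.95, -0.86 and -0.69. Without KD replicate 2 they were 0.63, 0.40, -0.29 and -0.16.

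Over all genes, 2139 were called with no filter, 875 with DESeq2, 950 with DESeq2 on all chromosomes, 2208 with the replicate block, 591 with the GC and length correction, 867 with that correction and the block, 80 thinned and 440 with corrected DESeq2, and 2 to 4744 when 1 library was left out (2 without WT replicate 1, 17 without WT replicate 2, 4744 without KD replicate 1 and 909 without KD replicate 2). Of the genes that work with integrins, the same settings called 19, 12, 11, 20, 6, 6, 1 and 5, and 0 to 36 without 1 library (36 without KD replicate 1, 7 without KD replicate 2). The replicate numbers share only a number. Deviations from the group means correlated at 0.25 between libraries of the same number. With 2 libraries per group this is a single value, since the second pair must repeat the first.

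ITGA3, ITGA5, ITGB4, ITGA2, ITGAV and ITGB1 kept their direction in all 14 alternative fits, which reuse the same libraries. Their log2 fold changes were 0.28 to 0.95, 0.46 to 0.93, 0.29 or more, -0.69 to -0.02, -0.86 to -0.03 and -0.46 to -0.01. In the corrected edgeR fit the SE of ITGA2, ITGAV and ITGB1 was 0.103, 0.0986 and 0.106, so their sign was not resolved there. ITGA6, ITGB3, ITGB5 and ITGB8 changed sign. Leaving out 1 library took ITGA6 from -0.40 to 0.13, ITGB3 from -0.31 to 0.33, ITGB5 from -0.03 to 0.57 and ITGB8 from -0.62 to 0.13. With the GC and length correction, with it and the block, and with corrected DESeq2, ITGA6 came to 0.14, 0.14 and 0.14, ITGB8 to 0.25, 0.23 and 0.22, and ITGB5 to -0.0017, -0.01 and -0.00028. ITGA6, ITGB8 and ITGB5 turned without KD replicate 2, and ITGB3 without KD replicate 1 and, at -0.16, when thinned. The cause was not tested. With total mH2A1 peaks in place of mH2A1.1 peaks, 3 in place of 6 integrin genes had a peak at the start. With 2 libraries per group and 2309549 counts in the shallowest, small differences of low genes such as ITGB3 were not detectable.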
